A study of Mus musculus with 4 samples.

Results

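The cell division genes are 38 genes whose products copy DNA or separate the copied chromosomes. They were chosen by symbol, as a list of well-known genes of the dividing cell, and each symbol matched 1 of the 33696 genes in the files. Of the members, 14 act in S phase and DNA replication (Mcm2, Mcm3, Mcm4, Mcm5, Mcm6, Pcna, Tyms, Rrm1, Rrm2, Uhrf1, Gins2, Cdc6, Tk1 and Pclaf) and 24 act mainly in G2 phase and mitosis. The latter are 6 genes of the cyclin, Cdk1 and anaphase-promoting complex machinery (Ccnb1, Ccnb2, Ccna2, Cdk1, Cdc20 and Ube2c), 6 genes of mitotic kinases and the spindle checkpoint (Aurka, Aurkb, Birc5, Plk1, Bub1 and Bub1b), 3 kinetochore genes (Cenpf, Cenpe and Knl1), 7 genes of spindle motors, microtubule binding and cytokinesis (Kif11, Kif20b, Tpx2, Nusap1, Prc1, Hmmr and Anln) and 2 genes of chromosome structure (Top2a and Mki67).

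A dividing cell makes these messages in waves. E2F factors switch on the replication genes before and during S phase. Complexes with B-Myb and FoxM1 switch on the mitotic genes later, through short promoter elements named CHR (cell cycle genes homology region) and CCAAT. In skin, division is known mainly in the basal layer of the epidermis, in the hair and nail matrix and at the rim of the sebaceous gland. Keratinocytes have stopped dividing by the time they reach the granular layer.

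The libraries are labelled P3 digit, after the last phalanx, and were made from hind limb digits 2 to 4 cut off at the near end of the second phalanx (P2), so that they hold P2 tissue too. They came from female C57BL/6 mice (C57BL/6J in the study's methods) aged 6 to 8 weeks, after amputation of the tip on digits 2 and 4, with the digits of 10 mice pooled in each of 4 libraries. The SAR131675 library came from mice fed chow with 30 mg/kg of SAR131675, an inhibitor of the lymphatic growth factor receptor VEGFR3, for 8 days, and the diet control library from mice on matched chow without it. The LNR library came from limbs whose inguinal and popliteal lymph nodes had been removed by surgery (lymph node removal), and the sham library from the control limbs, whose sample label reads only no treatment. The study names the opposite limb as the sham, so both libraries may hold digits of the same mice, and the labels do not say whether they do. Sources differ on the number of days after amputation, so no day is given, and with 1 library per condition, each its own batch in the labels, treatment and library cannot be told apart and no test across samples was possible.

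The libraries held 38464 (SAR131675), 30831 (diet control), 21669 (LNR) and 22539 (sham) barcodes, of which 29076, 24030, 19827 and 20669 had 200 to 5500 genes, at most 30000 UMIs (unique molecular identifiers, counted molecules) and at most 10% mitochondrial UMIs and were kept as cells. The median depth of kept cells was 11316, 10712, 5725 and 5851 UMIs. The kept cells of SAR131675 and diet control shared 210 barcodes, those of LNR and sham 101, and other pairs of libraries at most 2. Each pair was clustered on its own, with 341 genes tied to the cell cycle left out, the members, 69 other cell cycle genes and the histone genes among them, and each cluster received an "X-like" class name from its marker genes. Doublets, barcodes with more than 1 cell, were left in: at these loads 23.3%, 19.2%, 15.9% and 16.5% were expected, and the caller Scrublet marked 4.55%, 1.01%, 6.23% and 8.12% of kept cells. In the 8 classes checked, which include the basal, granular and inner root sheath-like classes, every marker was higher than in all other cells of the same library and none was at 0. Krt5 and Krt14, the keratin pair of basal keratinocytes, were also counted in cells that should lack them. In fibroblast-like cells Krt5 reached 111 (SAR131675), 65.3 (diet control), 717 (LNR) and 734 (sham) CPM (the usual unit of UMIs of a gene scaled to the same total in each class), against 4840, 5506, 5195 and 5216 CPM in basal keratinocyte-like cells. Krt5 counts outside keratinocytes were thus higher in the LNR and sham libraries, and their part in low values of the members was not tested.

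Promoter letters of the members were read in RefSeq windows from 250 bases before to 50 bases after the start (GRCm38.p6, an older build than the GRCm39 named for the counts), which were found for 33 of the 38 members. Ccna2, Tpx2, Mcm4, Aurkb and Gins2 had none in the table used here. The windows were searched on both strands for the CHR element TTTGAA, for CCAAT and for the E2F forms TTTGGCGC, TTTCCCGC, TTTCGCGC and TTTGCCGC, and no match overlapped one of another motif. Stretches of 120 bases before the start are shown 5′ to 3′ for 6 members, with the matched letters in capitals. Pcna, Ube2c, Top2a and Mki67 are among the genes that the rule for genes described in full named. Birc5, Cenpf and Prc1, which it named too, are not shown. Mcm6 and Cdk1 are examples with E2F forms and with CHR, chosen after their matches had been seen. The stretch of Pcna holds only CCAAT.
Mcm6: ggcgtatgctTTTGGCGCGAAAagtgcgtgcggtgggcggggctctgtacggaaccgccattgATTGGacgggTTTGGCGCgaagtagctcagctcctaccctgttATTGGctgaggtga
Pcna: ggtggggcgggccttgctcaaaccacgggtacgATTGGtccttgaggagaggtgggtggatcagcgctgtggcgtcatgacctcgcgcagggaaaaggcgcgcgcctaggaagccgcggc
Cdk1: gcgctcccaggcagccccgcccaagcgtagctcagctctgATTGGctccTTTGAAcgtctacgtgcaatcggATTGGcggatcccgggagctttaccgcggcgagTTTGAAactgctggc
Ube2c: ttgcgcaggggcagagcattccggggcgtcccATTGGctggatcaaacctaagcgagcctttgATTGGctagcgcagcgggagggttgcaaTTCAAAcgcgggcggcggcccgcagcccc
Top2a: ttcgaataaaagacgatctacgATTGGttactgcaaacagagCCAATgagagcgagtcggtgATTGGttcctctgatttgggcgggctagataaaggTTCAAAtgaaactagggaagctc
Mki67: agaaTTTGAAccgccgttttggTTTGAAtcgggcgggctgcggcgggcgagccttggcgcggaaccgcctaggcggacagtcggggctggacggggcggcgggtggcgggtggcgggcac

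These stretches lie at chr1:128359706-128359825 (Mcm6, minus strand), chr2:132253181-132253300 (Pcna, minus), chr10:69352913-69353032 (Cdk1, minus), chr2:164769809-164769928 (Ube2c, plus), chr11:99024190-99024309 (Top2a, minus) and chr7:135716380-135716499 (Mki67, minus). Mcm6, a subunit of the replicative helicase, had 3 E2F matches and no CHR match in its stretch. The E2F matches that begin at -110 and -106 share bases and are read on opposite strands. Cdk1, the kinase that drives entry into mitosis, had 2 CHR matches and 2 CCAAT matches, and Top2a, the topoisomerase that untangles sister chromatids, had 1 CHR match and 3 CCAAT matches.

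Across whole windows, CHR was present in 16 of 21 mitotic members (76.2%) and in 1 of 12 S phase members (8.33%), the latter being Mcm2, against 20.2% of the 27025 genes in the table. An E2F form was present in 6 of 12 S phase members (50%) and in 1 of 21 mitotic members (4.76%), which was Cdk1, against 2.6% of all genes. CCAAT was present in 9 of 12 S phase members (75%) and 16 of 21 mitotic members (76.2%), against 41.1% of all genes, so it did not part the groups. CHR and CCAAT stood together in 13 of 21 mitotic members (61.9%) against 8.97% of all genes. CHR matches of the mitotic members lay close to the start, with 20 of 23 between 100 bases before and 50 after it (1 match of Prc1 is counted in both of its overlapping windows), and many lay just after it: in the bases before the start alone, 8 of the 21 mitotic members held one. Birc5 (survivin), Nusap1, Tyms and Tk1 held none of the motifs in their windows. A match is a run of letters and not a shown binding site, and no match says only that these letters are not in this window.

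Division was concentrated in keratinocytes. A cell was counted as cycling when UMIs of at least 3 of the 38 members were left after thinning it to 2000 UMIs, a step that makes depths equal and leaves out cells with fewer UMIs (1717 in SAR131675, 2253 in diet control, 2216 in LNR and 2409 in sham). By this measure 13.5% of SAR131675 cells were cycling (3701 of 27359, 95% interval 13.1% to 13.9%), 10.97% of diet control cells (2388 of 21777, 10.6% to 11.4%), 13.4% of LNR cells (2355 of 17611, 12.9% to 13.9%) and 15.7% of sham cells (2872 of 18260, 15.2% to 16.3%). These and all later intervals cover counting error only. Cells of the 7 keratinocyte-like classes, sebaceous-like cells included, made up 87.8%, 86.4%, 73.8% and 77.8% of the cycling cells, against 67.5%, 67.2%, 45.5% and 52.2% of all cells deep enough. The measure is a range and not a cell type: at the border lay 2164, 1586, 1046 and 1180 cells with exactly 2 members and 674, 487, 367 and 437 with exactly 3. Without thinning, the shares were 46.4%, 40.5%, 24.5% and 26.9%, in the order of depth rather than that of the thinned shares.

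**Figure D1:**
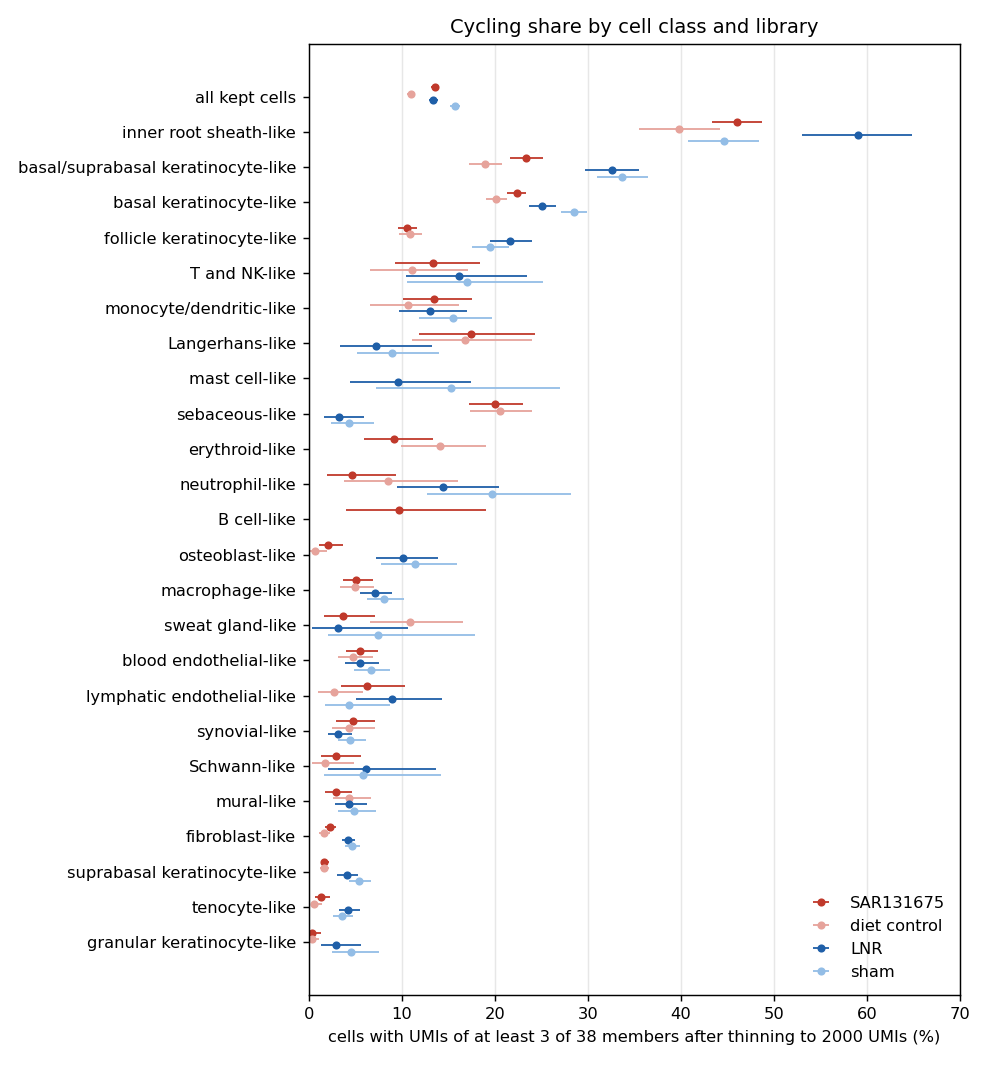
Share of cycling cells (percent of cells with at least 2000 UMIs, after thinning) in each class, with 1 point per library and bars for the exact 95% binomial interval. Inner root sheath-like cells have the highest share in all 4 libraries, from 39.8% to 59.0%, and granular keratinocyte-like cells lie near the bottom.

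Inner root sheath-like cells, named by Krt71, Krt25 and other keratins of the inner hair root sheath, had the highest share of the named classes in every library, although in sham this order changed under 4 alternative settings. It was 46.1% in SAR131675 (43.4% to 48.8%), 39.8% in diet control (35.5% to 44.2%), 59.0% in LNR (53.0% to 64.8%) and 44.6% in sham (40.8% to 48.4%). Krt35, a keratin of the hair and nail matrix, was in both pairs among the leading genes of a cluster of this class, so the class may hold more than the inner root sheath. Basal keratinocyte-like cells had 22.3% (21.3% to 23.3%), 20.2% (19.1% to 21.3%), 25.1% (23.7% to 26.6%) and 28.5% (27.1% to 29.9%), and because of their number they held most of the cycling cells of any class, 1564, 1062, 870 and 1114. A cluster with markers of both basal and suprabasal keratinocytes had 23.4%, 18.9%, 32.5% and 33.6%. In the LNR pair Pbk, a mitotic kinase gene, was among the leading genes of the mixed cluster and the histone gene H1f5 among those of a basal one, although both genes had been left out of the clustering.

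The basal class was not uniform. In the SAR131675 pair its largest cluster, led by Tspear, Krt14 and Krt5, had 28.9% cycling cells in SAR131675 and 25.5% in diet control, and a cluster led by Gm973 and Lgr5 had 9.22% and 7.87%. In the LNR pair a cluster led by Fcgbp, Krt5 and Krt14 had 35.6% in LNR and 39.8% in sham, and a cluster led by Krt42, Lhx2 and Shisa2 had 13.3% and 13.8%. The clusters led by Gm973 and by Krt42, with Lgr5 and Lhx2 of the hair follicle among their leading genes, thus had smaller cycling shares. This held against the clusters with Krt5 and Krt14 in each of the 4 libraries. The Krt42-led cluster, 1748 of 3589 basal cells in LNR and 1877 of 4115 in sham, also had Spink12 among its leading genes. In the SAR131675 pair a cluster led by Spink12, with Krt42, was named follicle keratinocyte-like, so the basal class may not hold like cells in both pairs. One unnamed cluster of the LNR pair, led by Akr1c18 and Gsta3, reached 37.8% in LNR and 41.0% in sham.

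Granular keratinocyte-like cells, which no longer divide, served as the background. Their share was 0.374% in SAR131675 (2 of 535 cells, 0.0453% to 1.34%), 0.298% in diet control (2 of 671, 0.0361% to 1.07%), 2.88% in LNR (8 of 278, 1.25% to 5.59%) and 4.53% in sham (14 of 309, 2.50% to 7.49%), at median depths of 21925, 21666, 16472 and 15194 UMIs. In the LNR pair the shares of tenocyte-like cells (4.26% in LNR and 3.58% in sham), synovial-like cells (3.13% and 4.43%), mural-like cells (4.30% and 4.90%) and sebaceous-like cells (3.29% and 4.29%) lay within this background interval. So did those of suprabasal keratinocyte-like (4.07% and 5.39%) and blood endothelial-like cells (5.51% and 6.63%). A share within the interval cannot be told from background. The granular cells were deeper than some classes set against them, such as mural-like and tenocyte-like cells (medians of 3072 and 3685 UMIs in LNR). Whether a share above the interval stands above the background of shallower classes was not tested. In the SAR131675 pair tenocyte-like cells stood at 1.34% and 0.595%, also within the granular interval of each library. That class was 1 cluster led by Mfap4, Coch, Dkk2 and Crabp1, with the tendon marker Thbs4 further down, whereas a cluster led by Angptl7, Fmod, Cilp2 and Thbs4 was part of the class in the LNR pair beside one led by Mfap4 and Sfrp2, so the name is uncertain for the Mfap4-led clusters and the class does not hold like cells in the 2 pairs. Fibroblast-like cells, at 2.26%, 1.59%, 4.21% and 4.65%, were not uniform. In the SAR131675 pair the cluster led by Gpc5 and Rspo3 had 5.85% (34 of 581 cells) and 5.26% (17 of 323), and the one led by Myoc and Pi16 1.13% (21 of 1854) and 0.911% (16 of 1757). In the LNR pair the cluster led by Rbp4 and Eln had 8.13% in LNR (120 of 1477, 6.78% to 9.64%) and 8.37% in sham (120 of 1433, 6.99% to 9.93%), and the one led by Pi16 and Myoc 0.869% (15 of 1727) and 1.12% (17 of 1515). Neutrophil-like cells, which had also been planned as background, had 4.67%, 8.51%, 14.4% and 19.6%. Only 150, 94, 174 and 112 of these cells were deep enough, at median depths of 1385 to 2617 UMIs. The neutrophil-like clusters were also led by Camp and Ngp, granule genes of immature neutrophils, whose part in these shares was not tested. Neutrophil-like cells were not used as background here. In the LNR pair their intervals (9.52% to 20.5% in LNR and 12.7% to 28.2% in sham) reach above the shares of macrophage-like, monocyte/dendritic-like and T and NK-like cells.

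Sebaceous-like cells of the SAR131675 pair had 20% (17.2% to 23.0%) and 20.5% (17.3% to 23.96%) cycling cells, close to the basal class. In the LNR pair this class had 3.29% and 4.29%, and all 5 of its markers were higher there than in the SAR131675 pair. Cidea had 429 (SAR131675), 531 (diet control), 1698 (LNR) and 1869 (sham) CPM, and Elovl3 179, 248, 851 and 965 CPM. The class may thus not hold like cells in the 2 pairs. Follicle keratinocyte-like cells had 10.6%, 10.9%, 21.7% and 19.5%, and were not uniform: the clusters led by Ccl27a, with Sostdc1 among the leading genes, had 23.9%, 22.3%, 30.8% and 28.1%, and those led by Defb6 and Cst6 2.34%, 3.19%, 5.29% and 3.87%. A cluster led by Spink12 and Krt16, in the SAR131675 pair, had 6.47% and 6.49%. Suprabasal keratinocyte-like cells, at 1.67% and 1.64% in the SAR131675 pair, lay far below the basal class of the same libraries. Among immune classes, monocyte/dendritic-like cells had 13.5%, 10.7%, 13.0% and 15.5%, T and NK-like cells 13.3%, 11.04%, 16.2% and 17.0%, and macrophage-like cells 5.09%, 4.93%, 7.07% and 8.05%. In the LNR pair the monocyte/dendritic-like cluster was led by Igkc, an immunoglobulin gene of B lineage cells, ahead of Cd74 and H2-Aa, whereas in the SAR131675 pair an Igkc-led cluster was apart, so the values of this class in the LNR pair may include B lineage cells. Osteoblast-like cells had 2.09% and 0.674% in the SAR131675 pair, where the cluster was led by Cytl1, Ibsp, Ecrg4 and Chad, and 10.2% and 11.4% in the LNR pair, where it was led by Mmp13, Bglap and Ibsp and a Cytl1-led cluster stayed unnamed, so the class does not hold like cells in the 2 pairs. Lymphatic endothelial-like cells, the class that VEGFR3 inhibition is aimed at, had 6.28% (14 cells), 2.73% (6 cells), 8.93% (15 cells) and 4.32% (7 cells). Pairs were clustered apart, so that class borders may differ between them.

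The summed level of the members was read in the same classes, and its order was not in each library that of the cycling shares. In basal keratinocyte-like cells the 38 genes together reached 2940 CPM in SAR131675, 2582 in diet control, 2775 in LNR and 3028 in sham, and in inner root sheath-like cells 3465, 3255, 3695 and 2007 CPM. In granular keratinocyte-like cells they reached 114, 94.1, 221 and 311 CPM. The highest class exceeded the lowest 30.3-fold, 34.6-fold, 16.7-fold and 11.1-fold, with sebaceous-like cells the lowest in sham and granular keratinocyte-like cells in the other libraries. In such sums, fewer dividing cells and less RNA per dividing cell cannot be told apart.

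**Figure D2:**
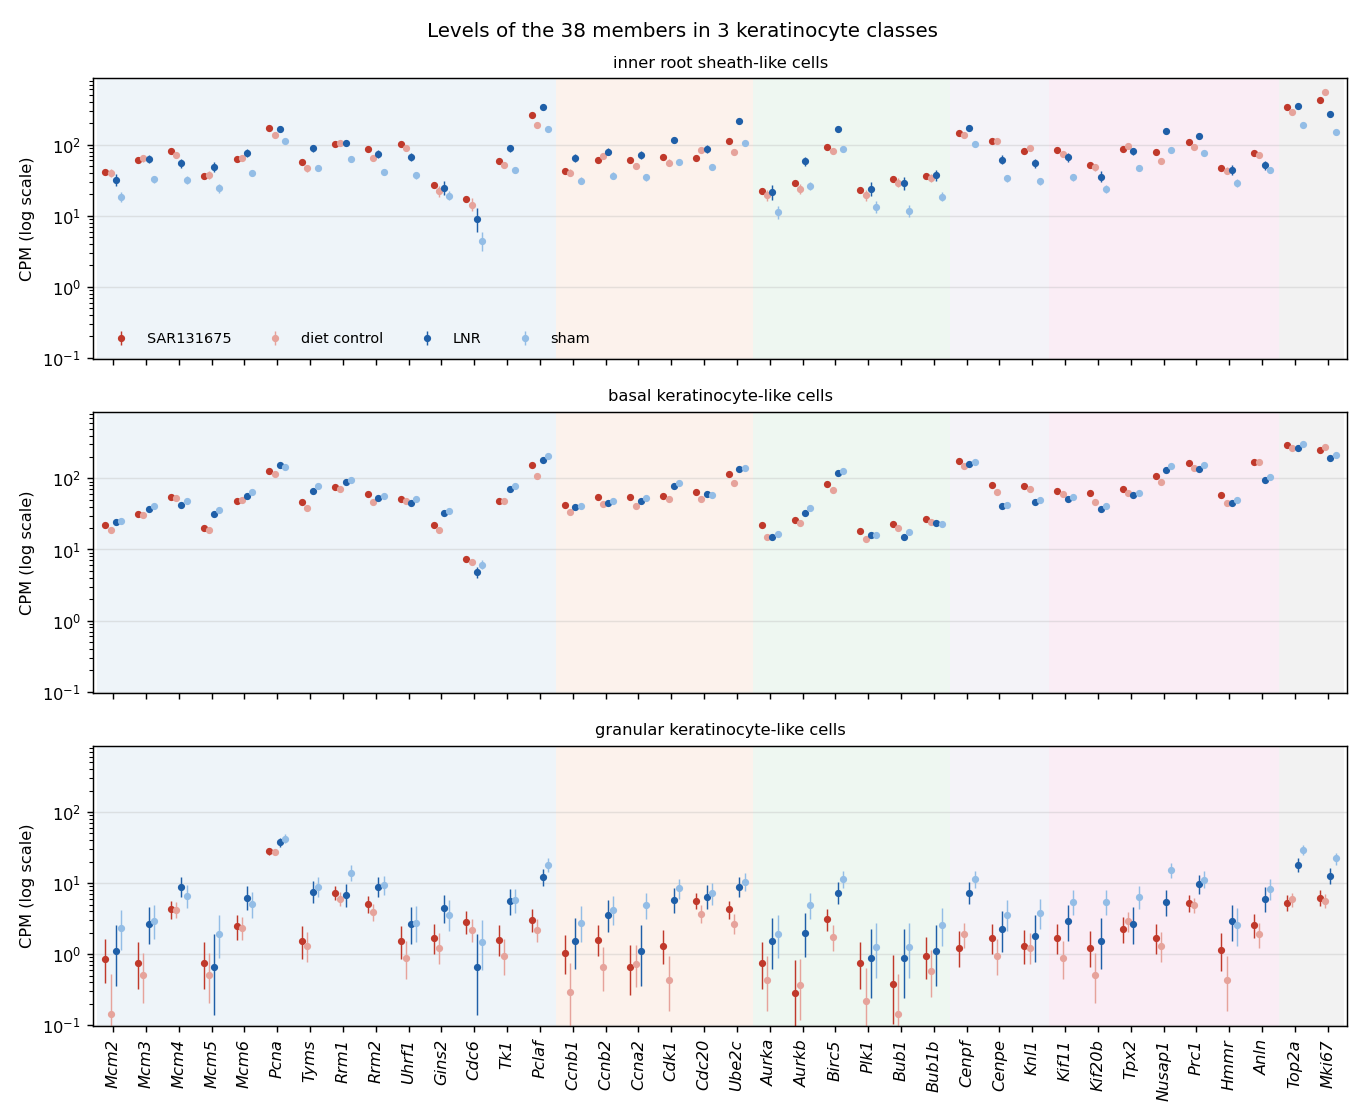
Level of each member (CPM, log axis) in basal, inner root sheath and granular keratinocyte-like cells of each library, with 95% Poisson intervals and the members grouped by role; members without a UMI in a class are not drawn. All members lie higher in basal than in granular keratinocyte-like cells, and the smallest gap is that of Cdc6 in SAR131675 (1.35 on the log2 scale).

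Among the S phase genes, Pcna, the sliding clamp that holds DNA polymerases on their template, reached 125, 116, 153 and 147 CPM in basal keratinocyte-like cells (SAR131675, diet control, LNR and sham, the order kept here), 173, 138, 168 and 113 CPM in inner root sheath-like cells and 28.3, 27.2, 37.6 and 42.1 CPM in granular keratinocyte-like cells. Pcna was also high where few cells were cycling, with 149, 132, 124 and 123 CPM in blood endothelial-like cells, whose cycling share was 5.51%, 4.80%, 5.51% and 6.63%. Its level in basal over granular keratinocyte-like cells was 2.15, 2.09, 2.02 and 1.80 on the log2 scale, against a median of 4.50, 4.40, 3.42 and 3.36 over the S phase members with over 3 UMIs in the granular class. Cdc6, which loads the helicase on origins, had 7.25, 6.66, 4.78 and 6.11 CPM in basal cells, and its basal over granular difference of 1.35 in SAR131675 and 1.61 in diet control was the smallest of the S phase members in these libraries. Mcm3 and Uhrf1, a helicase subunit and a factor that keeps DNA methylation through replication, stood at the other end with differences of 5.92 and 5.76 in diet control.

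Among the cyclin, Cdk1 and anaphase-promoting complex genes, Ube2c, the ubiquitin-conjugating enzyme that starts chains for the anaphase-promoting complex, had 116, 84.9, 134 and 141 CPM in basal cells, 113, 79.9, 214 and 104 in inner root sheath-like cells and 4.26, 2.70, 8.90 and 10.4 in granular cells. Cdc20, the activator of that complex, had the smallest basal over granular difference of the mitotic members in 3 libraries, 3.52, 3.81 and 3.20 (log2; SAR131675, diet control and LNR). Ccna2 (cyclin A2) had 6.35, 5.82, 5.42 and 3.43, and Cdk1 5.41, 6.87, 3.74 and 3.34. The cyclin B genes Ccnb1 and Ccnb2 lay between 3.51 and 6.86.

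Birc5, survivin of the chromosomal passenger complex, had 84.3, 69.7, 119 and 129 CPM in basal cells, 92.1, 81.9, 166 and 88.4 in inner root sheath-like cells and 3.12, 1.75, 7.35 and 11.4 in granular cells. Of the other kinase and checkpoint genes, Aurka, Aurkb, Plk1, Bub1 and Bub1b, the basal over granular differences ran from 2.96 to 6.00 where over 3 UMIs stood in the granular class. Cenpf, a large kinetochore protein, had 177, 148, 159 and 169 CPM in basal cells and 1.23, 1.90, 7.35 and 11.4 in granular cells, and its log2 difference of 7.17 in SAR131675 was the highest of the mitotic members in that library. Cenpe, the kinetochore motor, and Knl1, the scaffold on which checkpoint proteins gather, lay between 3.56 and 6.08.

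Prc1, which bundles microtubules of the central spindle, had 164, 142, 136 and 152 CPM in basal cells, 110, 93.6, 135 and 76.9 in inner root sheath-like cells and 5.20, 4.88, 9.79 and 11.2 in granular cells. Anln (anillin of the cleavage furrow) had 172, 168, 93.6 and 105 CPM in basal cells and 2.55, 1.90, 6.01 and 8.26 in granular ones. The remaining genes of this role, Kif11, Kif20b, Tpx2, Nusap1 and Hmmr, had basal over granular differences from 2.87 to 6.68. Top2a had 296, 271, 270 and 306 CPM in basal cells, 338, 291, 355 and 187 in inner root sheath-like cells and 5.30, 5.90, 18.3 and 29.2 in granular cells. Mki67, which coats mitotic chromosomes and is the antigen of the usual division stain Ki-67, had 253, 273, 192 and 212 CPM in basal cells, 430, 548, 266 and 151 in inner root sheath-like cells and 6.24, 5.61, 12.7 and 22.2 in granular cells.

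Most members were highest in inner root sheath-like cells, 29 of 38 in SAR131675, 29 in diet control and 33 in LNR. The members that were highest in basal cells instead came in the SAR131675 pair mostly from the spindle and cytokinesis genes, with Nusap1, Prc1, Hmmr, Anln, Cenpf and Ube2c in both libraries of the pair and Aurka and Kif20b in SAR131675. Tyms (thymidylate synthase) was highest in sebaceous-like cells in both, as was Gins2 in diet control, where Pcna was highest in T and NK-like cells. In sham, 24 members were highest in basal and 11 in mixed basal and suprabasal cells, and none in inner root sheath-like cells, which in that library hold a cluster of 387 cells with almost no counterpart in LNR (6 cells).

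The balance of both waves differed between classes. The 14 S phase members gave 26.0% of the member UMIs in basal keratinocyte-like cells of SAR131675, 26.0% in diet control, 32.1% in LNR and 32.0% in sham, and 33.7%, 30.8%, 33.7% and 33.9% in inner root sheath-like cells. Their part was larger in some classes with few cycling cells, with 54.2%, 57.0%, 48.1% and 40.2% in granular keratinocyte-like cells and 56.1%, 63.7%, 45.9% and 42.5% in fibroblast-like cells. This did not hold for all such classes. Sweat gland-like cells of LNR and neutrophil-like cells of SAR131675, with cycling shares of 3.08% and 4.67%, both had 33.1%, close to inner root sheath-like cells. The highest values were 75.2% in osteoblast-like and 73.9% in tenocyte-like cells of diet control. More than 50% of the member UMIs were of S phase genes in 10 classes of SAR131675 and 9 of diet control, against 3 of LNR and 1 of sham. In the SAR131675 pair, Langerhans-like cells had the lowest part in SAR131675, 25.3%, and sweat gland-like cells in diet control, 23.96%. Pcna weighed more in the S phase sum of granular than of basal cells. In granular cells it gave 28.3, 27.2, 37.6 and 42.1 of 62.0, 53.6, 106 and 125 CPM (SAR131675, diet control, LNR and sham). In basal cells it gave 125, 116, 153 and 147 of 765, 671, 889 and 969 CPM. The balance without Pcna was not computed.

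**Figure D3:**
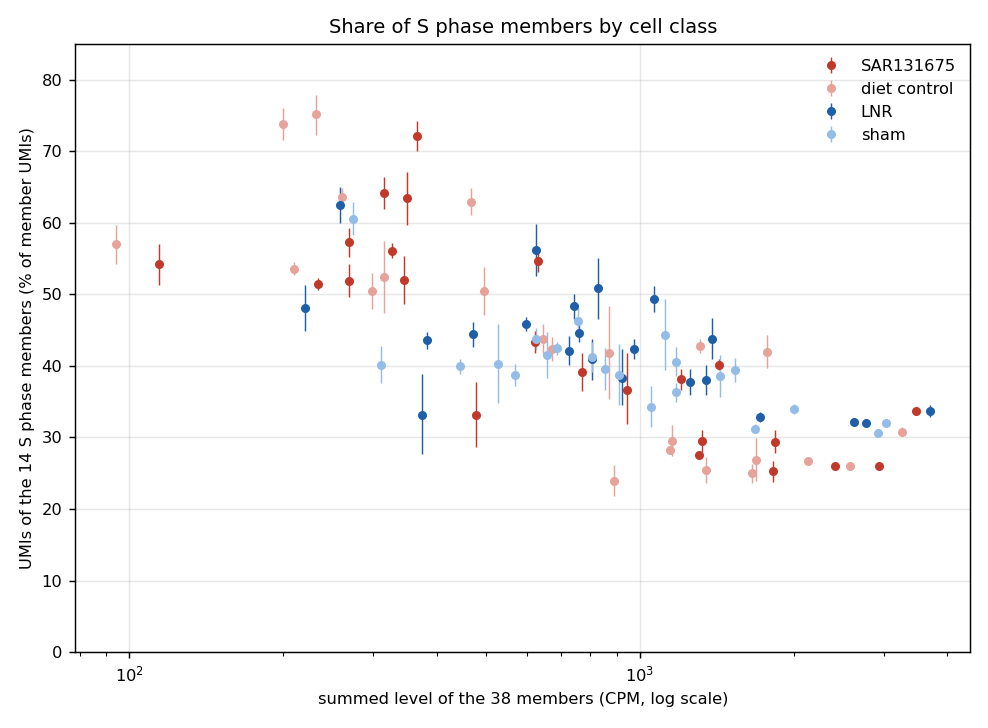
Part of the member UMIs that come from the 14 S phase members (percent) against the summed level of all members (CPM, log axis), with 1 point per class and library and bars for the 95% binomial interval. Some classes with low sums have higher S phase parts, up to 75.2% in osteoblast-like cells of diet control. Others do not, such as sweat gland-like cells of LNR (375 CPM, 33.1%). Basal keratinocyte-like cells lie between 26.0% and 32.1%.

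Within basal keratinocyte-like cells, each member was placed by its level in S-type cells, which held at least 4 other S phase members and at most 1 other mitotic member, against mitotic-type cells, which held the reverse. These cells were chosen from the members themselves, with the gene in question left out, so the placement is a description, and values are the median of the 4 libraries of the log2 ratio of S-type over mitotic-type level in CPM. The cells were not thinned, so that UMIs per cell do not give this ratio. The mitotic members all lay below 0. Hmmr, a spindle-binding hyaluronan receptor, was the lowest at -7.84 (-8.39 to -7.25 over libraries), followed by Cenpf at -7.38, Nusap1 at -6.34 and Ccnb2 at -6.21. Nearest to 0 among them were Aurka at -2.02, Cdk1 at -2.31, Prc1 at -2.67, Anln at -2.91 and Top2a at -3.07, and Mki67 was at -4.48. Mki67 had 121 UMIs in 522 S-type cells and 473 in 116 mitotic-type cells of SAR131675.

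The S phase members spread over both sides of 0. Mcm3 at 2.82, Mcm2 at 2.65, Mcm6 at 2.28 and Mcm5 at 2.07, all helicase subunits, lay highest, with Gins2, which joins the same helicase, at 1.81, Mcm4 at 1.63 and Pcna at 1.46. Tyms at 0.33, Rrm2 at 0.25, Tk1 at -0.03 and Rrm1 at -0.28, the genes of nucleotide supply, lay near 0. Pclaf, a Pcna-binding protein, was at -2.13 (-2.93 to -1.25), the only S phase member below 0 in all 4 libraries. In SAR131675 it had 43 UMIs in 444 S-type cells (7.28 CPM) and 95 in 184 mitotic-type cells (55.3 CPM), and in LNR 47 in 222 (22.8 CPM) and 21 in 53 (54.35 CPM). Its promoter window holds an E2F form and CCAAT and no CHR. Cdc6 had a ratio in 2 libraries only, at 1.03 and 1.09 with intervals that include 0.

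**Figure D4:**
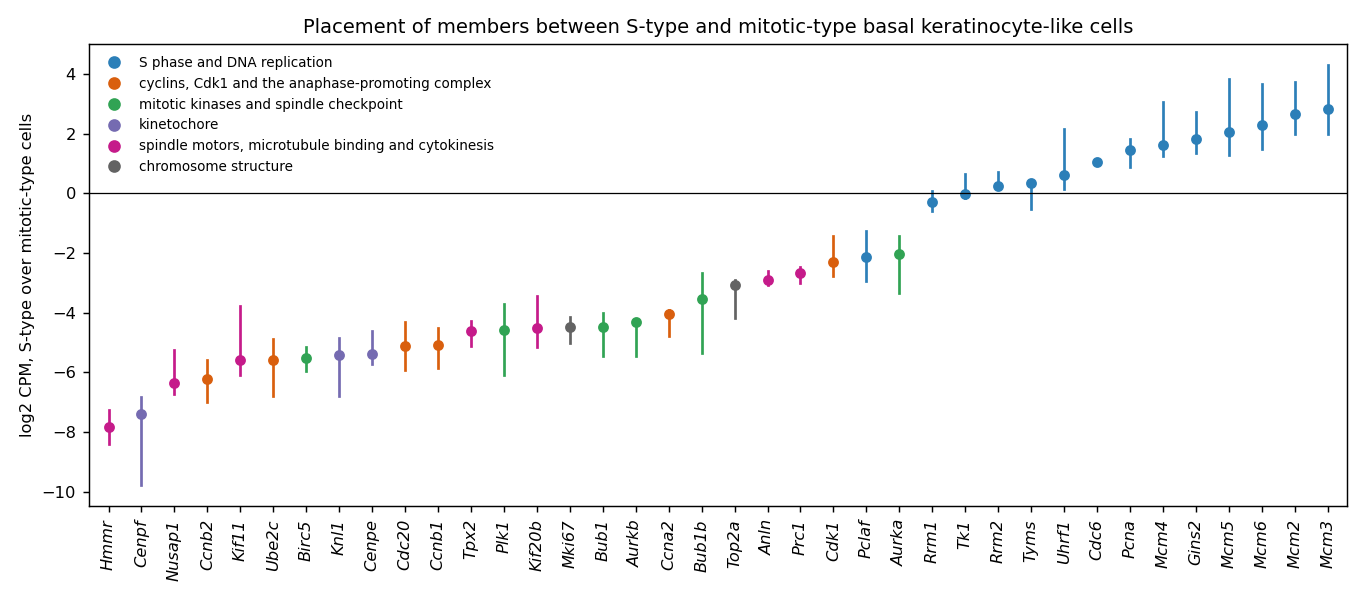
Log2 ratio of each member's level in S-type over mitotic-type basal keratinocyte-like cells, with the median of the 4 libraries as a point, the lowest to highest library as a line, and colors by role. Hmmr (-7.84) and Mcm3 (2.82) mark the ends, and Pclaf (-2.13) lies among the mitotic members.

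The first comparison asked how the members differ between SAR131675 and its diet control. In basal keratinocyte-like cells, 35 of 38 members were higher in SAR131675, and their median log2 ratio was 0.21 against -0.05 over all 13893 genes with at least 100 UMIs in the pair, with 30 intervals above 0 and 1 below, where 3021 of all genes had an interval above 0 and 4956 below. None of the 38 was past 1.5-fold in either direction, where the background was 2.13% of all genes for higher and 1.77% for lower. The members together were 0.19 higher (0.18 to 0.20), and in the granular keratinocyte-like cells that served as background they were 0.28 higher (0.17 to 0.40). All members were read in the same cells, so their signs are not independent measurements.

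The members with the highest ratios were Aurka, the kinase of spindle poles, with 22.1 CPM in SAR131675 and 14.8 in diet control (log2 0.58, 0.46 to 0.70), and Pclaf with 153 and 107 CPM (0.52, 0.48 to 0.56). Ube2c followed with 116 and 84.9 CPM (0.44, 0.39 to 0.49), Kif20b, a kinesin of cytokinesis, with 61.9 and 46.4 CPM (0.42, 0.35 to 0.48), and Ccna2 with 54.0 and 41.2 CPM (0.39, 0.32 to 0.46). Only 3 members were lower. Mki67 had 253 against 273 CPM (-0.11, -0.14 to -0.08), and Mcm6 (48.2 against 49.3 CPM) and Tk1 (47.6 against 47.7 CPM) had intervals that include 0. The most used division marker thus lay on the other side of 0 from 35 members in these libraries. The helicase genes Mcm3, Mcm4, Mcm5 and Mcm6 had ratios from -0.03 to 0.07 with intervals that include 0, whereas Mcm2 of the same helicase had 22.3 and 19.01 CPM (0.23, 0.12 to 0.33). The 6 cyclin, Cdk1 and anaphase-promoting complex genes had ratios from 0.15 to 0.44 with intervals above 0.

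The share of cycling cells in the basal class was 22.3% in SAR131675 and 20.2% in diet control, a log2 ratio of 0.15 (0.05 to 0.25). It was higher also in mixed basal and suprabasal cells (0.30, 0.13 to 0.48) and in inner root sheath-like cells (0.21, 0.03 to 0.39, but -0.24, -0.80 to 0.33, with classes set by marker UMIs), and lower in sweat gland-like cells (-1.56, -2.73 to -0.40), where it rests on 8 and 18 cycling cells and was -0.03 (-0.53 to 0.48) without thinning. In the other 18 of 22 classes compared the interval included 0, among them follicle keratinocyte-like cells (-0.04, -0.26 to 0.17), sebaceous-like cells (-0.04, -0.34 to 0.27) and lymphatic endothelial-like cells (1.203, -0.15 to 2.56). Without thinning all 3 ratios changed sign, to 0.16 (0.06 to 0.25), 0.27 (0.15 to 0.39) and -0.08 (-0.50 to 0.33), the last from shares of 25.7% and 27.2%. In Langerhans-like cells, the dendritic cells of the epidermis, 11 of the 18 members with 100 UMIs were past 1.5-fold higher (background 2.75%) and the members together were 0.66 higher (0.58 to 0.75), although the cycling shares of 17.4% and 16.8% rest on 27 and 24 cells. The members together were also higher in lymphatic endothelial-like cells (0.64, 0.51 to 0.76) and blood endothelial-like cells (0.43, 0.36 to 0.50), in osteoblast-like (0.44, 0.33 to 0.56), tenocyte-like (0.43, 0.34 to 0.53) and fibroblast-like cells (0.32, 0.27 to 0.37), and lower in neutrophil-like (-1.82, -1.99 to -1.65), sweat gland-like (-1.36, -1.48 to -1.24), mural-like (-0.82, -0.91 to -0.74) and erythroid-like cells (-0.32, -0.39 to -0.26). The intervals of these levels take UMIs as independent, although UMIs of the same cell are not. Cycling cells were few, with 7 and 8 neutrophil-like, 14 and 6 lymphatic endothelial-like, 12 and 3 osteoblast-like and 12 and 5 tenocyte-like ones. Of these classes, only sweat gland-like cells had an interval of the cycling share ratio that left out 0. Krt5 was also higher in SAR131675 than in diet control in fibroblast-like (111 against 65.3 CPM), blood endothelial-like (302 against 218.1) and tenocyte-like cells. It was higher too in neutrophil-like (598.5 against 150.2), mural-like and macrophage-like cells, where the members together were lower. The Gpc5-led cluster held 599 of 2488 fibroblast-like cells in SAR131675 and 346 of 2146 in diet control. The part of Krt5-bearing RNA and of this cluster in the levels was not tested. In all kept cells together, all 38 members were higher and 3 were past 1.5-fold, Pclaf at 0.69, Aurka at 0.64 and Ube2c at 0.63, against a background of 2.44%.

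The larger difference over all kept cells, 13.53% against 10.97% (0.30, 0.23 to 0.37), moved with the mix of classes. Inner root sheath-like cells were 4.83% of the kept cells in SAR131675 and 2.40% in diet control. Weighted to the class mix of its control, SAR131675 had 12.1% cycling cells, a log2 ratio of 0.14, and with inner root sheath-like cells left out the shares were 11.9% and 10.3% (0.20). Both values were chosen after seeing the data. Without the 210 barcodes that both libraries hold, the ratio was 0.15 in the basal class and 0.30 over all kept cells.

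In T and NK-like and monocyte/dendritic-like cells, chosen after their values were seen, the S phase and mitotic medians had opposite signs. In T and NK-like cells all 6 S phase members with 100 UMIs were lower in SAR131675 and 10 of 11 mitotic members higher, with medians of -0.38 and 0.52. In monocyte/dendritic-like cells 7 of 8 S phase members were higher and 15 of 16 mitotic members lower, with medians of 0.48 and -0.46. These values rest on 31 and 17 cycling T and NK-like cells and on 47 and 19 monocyte/dendritic-like ones. Of all genes, 5.15% were past 1.5-fold higher and 3.82% lower in T and NK-like cells. In monocyte/dendritic-like cells these shares were 3.07% and 3.17%. How many of all genes were higher or lower in these classes is not given, so the counts by direction have no background beside them. The medians had the same sign in some other small classes, with 0.31 and 0.80 in Langerhans-like, 0.17 and 0.73 in blood endothelial-like, -0.13 and -1.51 in mural-like and -0.18 and -2.21 in sweat gland-like cells, and opposite signs in tenocyte-like (-0.07 and 1.32) and macrophage-like cells (-0.26 and 0.02).

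**Figure D5:**
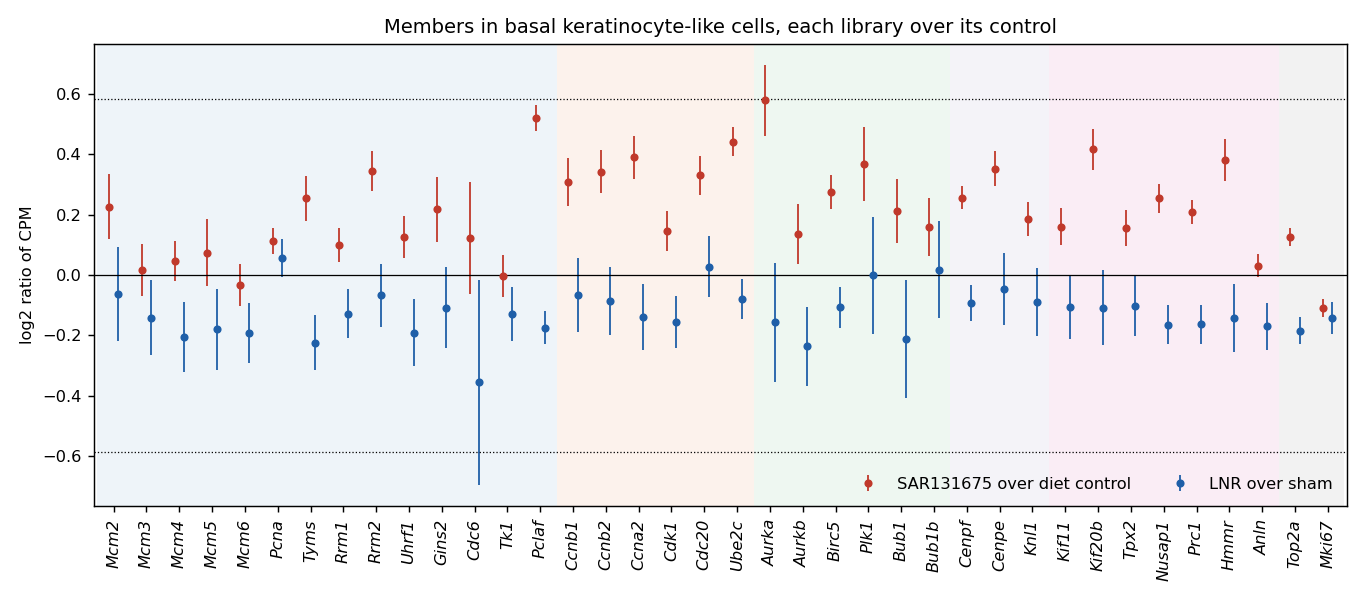
Log2 ratio of each member's level in basal keratinocyte-like cells, SAR131675 over diet control and LNR over sham, with exact 95% intervals and dotted lines at 1.5-fold. Most members lie above 0 in the first comparison and below 0 in the second, and none crosses the dotted lines.

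The second comparison asked the same of LNR and sham. In basal keratinocyte-like cells, 35 of 38 members were lower in LNR, and their median log2 ratio was -0.13 against -0.00 over 11472 genes, with 24 intervals below 0 and none above, where 870 of all genes had an interval below 0 and 852 above. None was past 1.5-fold in either direction, where the background was 0.549% for higher and 0.331% for lower, and the members together were at -0.13 (-0.14 to -0.11). The lowest were Cdc6 with 4.78 CPM in LNR and 6.11 in sham (-0.35, -0.70 to -0.01), Aurkb, the kinase of the chromosomal passenger complex, with 32.3 and 37.96 CPM (-0.24, -0.37 to -0.10), Tyms with 66.6 and 77.8 CPM (-0.22, -0.32 to -0.13), the checkpoint kinase gene Bub1 with 15.0 and 17.4 CPM (-0.21, -0.41 to -0.02) and Mcm4 with 42.4 and 48.9 CPM (-0.20, -0.32 to -0.09). Pcna with 153 and 147 CPM, Cdc20 with 59.5 and 58.4 and Bub1b with 23.3 and 23.0 were higher in LNR, with intervals that include 0. Top2a (-0.18, -0.23 to -0.14) and Mki67 (-0.14, -0.20 to -0.09) were both lower.

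The cycling share of the basal class was 25.1% in LNR and 28.5% in sham (-0.18, -0.29 to -0.07). Without thinning the shares were 40.3% and 42.4%, with a ratio of -0.07 (-0.15 to 0.00) whose interval includes 0. In mixed basal and suprabasal cells the ratio was -0.05 (-0.22 to 0.12), and 0.00 (-0.11 to 0.11) without thinning. Over all kept cells it was -0.23 (-0.31 to -0.16), and -0.07 when LNR was weighted to the class mix of sham, which took its share from 13.4% to 15.0% against 15.7%, a weighting chosen after seeing the data. Without the 101 barcodes that both libraries hold, the ratio was -0.18 in the basal class and -0.23 over all kept cells.

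In the whole inner root sheath-like class the direction depended on the thinning. The shares were 59.0% in LNR and 44.6% in sham when thinned to 2000 UMIs (0.40, 0.22 to 0.59), but 70.7% and 83.0% without thinning (-0.23, -0.35 to -0.11), and the ratio was -0.12 (-0.27 to 0.03) when thinned to 4000 UMIs. Of 37 members with 100 UMIs, all were higher in LNR and 33 were past 1.5-fold, against a background of 9.65% in this class. The class holds the cluster of 387 sham and 6 LNR cells led by Krt36, Krt84 and Krt71, and as Krt36 and Krt84 are keratins of hair and nail, the class name is uncertain for it. Without it, a choice made after seeing the data, the thinned shares were 60.3% (54.3% to 66.1%) in LNR and 47.9% (42.0% to 53.9%) in sham. Without thinning they were 71.1% and 64.6%, so that LNR was higher by both measures. The sham cells of the left-out cluster had 42.1% when thinned and 96.9% without thinning. With that cluster left out, 36 of 37 members were higher in LNR and none was past 1.5-fold in either direction (background 1.06% higher and 1.43% lower). The members together were 0.20 higher (0.17 to 0.24). The members in fibroblast-like, macrophage-like and monocyte/dendritic-like cells were together lower in LNR, at -0.20, -0.27 and -0.29, and so were those in the granular keratinocyte-like background, at -0.49 (-0.61 to -0.38). Besides inner root sheath-like cells, the summed level was higher in LNR than in sham in tenocyte-like (760 and 625 CPM) and neutrophil-like cells (1347 and 1050). It was also higher in follicle keratinocyte-like (1718 and 1678) and Schwann-like cells (922 and 911).

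Set side by side in the basal class, 32 members were higher in SAR131675 than in its control and lower in LNR than in sham. Bub1b, Cdc20 and Pcna were higher in both comparisons, and Mcm6, Mki67 and Tk1 lower in both. The comparisons share no library, but within each the members were read in the same cells, so their signs are not independent measurements. How many of all genes show the same joint pattern was not counted.

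Other genes of the cell cycle, from a list of 69 genes kept out of the clustering, were read in the same way. Of the 68 with 100 UMIs in basal keratinocyte-like cells, 58 were higher in SAR131675, with a median of 0.13, and 48 were lower in LNR, with a median of -0.07. The medians over all genes of this class are those given above for each comparison. None of the 68 was past 1.5-fold in either comparison. The background was 2.13% higher and 1.77% lower in the first and 0.549% and 0.331% in the second, so few of any 68 genes would be past it. Cks2 and Cks1b, small partners of Cdk1, had 0.52 (0.48 to 0.57) and 0.41 (0.35 to 0.47) in SAR131675 and 0.02 and -0.03 in LNR, with intervals including 0. The G1 genes Ccnd2 (cyclin D2) and Cdk6 were lower in SAR131675, at -0.28 (-0.31 to -0.26) and -0.23 (-0.27 to -0.19), unlike most members. Cdkn1a, the inhibitor p21, was higher in LNR with 78.8 against 61.6 CPM (0.35, 0.26 to 0.45), and E2f1, a factor that switches on replication genes, was lower with 12.4 against 16.2 CPM (-0.38, -0.59 to -0.17). These 6 genes were chosen after their values were seen. In the placement above, E2f1 at 1.91 and Ccne1 (cyclin E1) at 1.959 lay with the helicase genes. The value of Ccne1 is the midpoint of its lowest and highest library (1.78 and 2.14) and may rest on fewer than 4 libraries.

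Outside both lists, the genes whose level across clusters was most like the sum of the members were Incenp (Pearson r = 0.953), Sgo2a (0.934), Ncapg2 (0.933), Clspn (0.932), Depdc1a (0.927), Melk (0.917), Pbk (0.916), Knstrn (0.915), Esco2 (0.914) and Ncapg (0.914), over 126 points, each 1 cluster in 1 library. The points share libraries and depth, so these values are a description.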

How the data were processed

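The deposited files hold UMI counts per gene and barcode for each of the 4 libraries, made by the authors with Cell Ranger and not normalized. The submitters' processing notes name version 6.1.2 and GRCm39, and the file headers give 6.1.2 for LNR and sham and 8.0.1 for SAR131675 and diet control. Barcodes with 200 to 5500 genes, at most 30000 UMIs and at most 10% mitochondrial UMIs were kept. The kept cells held 339642813 (SAR131675), 265779470 (diet control), 142866794 (LNR) and 150624773 (sham) UMIs.

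Each pair of libraries was clustered in scanpy 1.11.5 (Python 3.11.15) with 2000 variable genes, 30 principal components, 20 neighbours, resolution 0.7 and seed 1, after 341 genes tied to the cell cycle, the members and 69 other listed genes among them, had been left out. Clusters were named from fixed marker lists for 24 classes, by a scoring rule chosen after looking at the clusters. Doublets were left in, and their removal by Scrublet was an alternative. The members and lists were chosen with earlier results of these data known. Named in full were Mki67, Top2a and Pcna and the gene with most UMIs in each other role, and the members with the highest and lowest ratios of each comparison. Other genes named were chosen after their values were seen.

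Levels (CPM) are UMIs of a gene scaled to the same total in each class. Cycling cells held at least 3 members after thinning to 2000 UMIs. Classes needed 50 cells, and pair ratios 100 UMIs. Intervals are 95% (exact Poisson, exact binomial, exact conditional for ratios of counts, log method for ratios of shares), and a granular level of 3 UMIs or fewer gave no ratio. With 1 library per condition no test was run. Likeness was Pearson's r over clusters. The calculations were tested on simulated data. Alternatives were other thinning depths, member minimums, filters, scalings, resolutions and class rules, left-out barcodes and left-in cell cycle genes.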

Additional observations from a re-analysis of the deposited data

Results flagged for a closer look

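Barcodes above 5500 genes or 30000 UMIs entered the comparisons only in the alternative without upper limits, and their cycling share was above that of the kept cells of the same library. In SAR131675, 6221 such barcodes with a median of 32573 UMIs had 35.54% cycling (34.35% to 36.74%), against 13.53% of kept cells. In diet control, 4400 barcodes with a median of 33574 UMIs had 29.64% (28.29% to 31.01%), against 10.97%. In LNR, 523 barcodes with a median of 38325 UMIs had 27.72% (23.93% to 31.78%), against 13.37%. In sham, 513 barcodes with a median of 38033 UMIs had 23.78% (20.16% to 27.71%), against 15.73%. All were thinned to the same 2000 UMIs as the kept cells, and the part of doublets in these values was not tested.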

How the results depend on the processing

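No paired analysis was possible because each condition has 1 library. In the basal class and over all kept cells no ratio of cycling shares changed its direction under the alternatives run, and neither did a median of the members. Other classes did. The ratio of LNR over sham in inner root sheath-like cells was -0.12 when thinned to 4000 UMIs and -0.23 without thinning, against 0.40, and that of SAR131675 over diet control was -0.24 with classes set by marker UMIs, against 0.21. The latter's interval also included 0 with at least 2 members, with at least 2 mitotic members, when thinned to 1000 or 4000 UMIs, with cell cycle genes left in and at the higher resolution. Without thinning the sign changed in 4 of 21 classes other than basal in the SAR131675 pair and in 13 of 21 in the LNR pair. In the basal class, the log2 ratio of the cycling share of SAR131675 over diet control was 0.27 when cells were thinned to 1000 UMIs, against 0.15. Over all kept cells it was 0.23 with at least 2 members, 0.23 when thinned to 4000 UMIs, 0.20 without thinning, 0.14 at the class mix of the control and 0.20 without inner root sheath-like cells, against 0.30. For LNR over sham in all kept cells it was -0.31 with at least 2 mitotic members, -0.14 with at least 2 S phase members, -0.13 without thinning and -0.0651 at the class mix of the control, against -0.23. With Mki67 and Top2a left out, the S phase part of basal member UMIs was 31.98% (SAR131675), 32.9% (diet control), 38.45% (LNR) and 38.61% (sham). Inner root sheath-like cells had the highest cycling share in 3 of 4 libraries, not in sham, with at least 5 members, with at least 2 S phase members, when thinned to 1000 UMIs and with classes set by marker UMIs. In the bases before the start, 8 of 21 mitotic members held CHR, against 16 in whole windows, where the shares of all genes were 18.3% and 20.2%. The class mix, the left-out class and the settings in classes other than basal were added after seeing the data, and the cause of these shifts was not tested. Shallow cells, low-count members such as Cdc6 and the absence of a second library per condition limit the rest.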
